A study of Mus musculus with 72 samples.

Results

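CEBPB sites outside active chromatin are the CEBPB peaks of WT mouse embryonic fibroblasts (MEFs) that no peak of H3K27ac, p300 or Brd3 accompanied. They were chosen by measured WT values: a CEBPB peak of WT replicate 1 had to overlap a CEBPB peak of WT replicate 2 and to have no H3K27ac, p300 or Brd3 peak of either WT replicate within 1000 bp. The rule found 5332 sites, 44.0% of the 12106 CEBPB sites shared by the WT replicates. The other 6774 sites, called active sites here, had at least 1 such peak nearby and serve as the comparison. An H3K27ac peak lay within 1000 bp of 97.0% of the active sites, a Brd3 peak of 50.8% and a p300 peak of 32.5%.

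The study compared WT MEFs (Hmgn1+/+n2+/+) with DKO MEFs (Hmgn1-/- n2-/-), both of C57BL/6 origin, by ChIP-seq with 2 biological replicates per genotype for each antibody. DKO cells lack HMGN1 and HMGN2, a pair of nucleosome-binding proteins. Chromatin was precipitated with an antibody to the protein or histone mark, and the deposited values are lists of narrow peaks on the mm9 genome, each with a fold enrichment over local background and a −log10 p and −log10 q. The lists hold no read totals, so the depth behind each library is unknown, and a site without a peak is one that did not pass the caller's threshold. Of 19 fibroblast marker genes, 19 and 18 carried an H3K27ac peak within 1000 bp of a start in the WT replicates, against 0 of 7 pluripotency genes and 1 of 7 B cell genes (Ebf1).

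CEBPB is a leucine zipper transcription factor that binds DNA as a dimer, each partner reading one side of the palindrome TTGCGCAA. It acts in fat, liver and myeloid cell differentiation and in the response to inflammation. H3K27ac marks active enhancers and promoters, p300 is an acetyltransferase that writes it, and Brd3 is a bromodomain protein that binds acetylated histones, so a CEBPB site without all of them lies where the usual signs of an active element were not called.

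The strongest sites outside active chromatin are shown with 61 bases of the mm9 reference around the WT replicate 1 summit, because the elements at the summit are counted in what follows. Capitals mark the C/EBP core TTGCNNAA on either strand, and the AP-1 element TGACTCA or its reverse complement. The first 5 lines are the strongest sites with a peak in both DKO lists, all on the plus strand, named by the nearest protein-coding gene, and the last 3 are the strongest with a peak in neither, both sets leaving out chromosomes 18 and Y.
Rcn1, kept, chr2:105268433-105268493: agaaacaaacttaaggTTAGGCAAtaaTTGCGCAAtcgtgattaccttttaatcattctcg
Cdkl4, kept, chr17:80960250-80960310: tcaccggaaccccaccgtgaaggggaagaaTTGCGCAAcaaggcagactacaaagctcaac
Pgap1, kept, chr1:54580726-54580786: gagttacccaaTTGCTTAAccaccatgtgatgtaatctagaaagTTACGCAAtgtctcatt
Tbx18, kept, chr9:87745174-87745234: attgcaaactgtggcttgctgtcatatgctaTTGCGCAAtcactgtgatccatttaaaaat
Tal1, kept, chr4:114707811-114707871: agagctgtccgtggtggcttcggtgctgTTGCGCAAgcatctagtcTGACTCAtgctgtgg
Gm7866, lost, chr9:72054904-72054964: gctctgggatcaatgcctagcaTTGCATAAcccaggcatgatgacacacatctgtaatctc
Stard3nl, lost, chr13:19558904-19558964: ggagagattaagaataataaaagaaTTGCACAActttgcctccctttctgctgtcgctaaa
Il12b, lost, chr11:44092411-44092471: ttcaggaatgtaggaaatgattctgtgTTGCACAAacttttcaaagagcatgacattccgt

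Of the 5 kept sites, those near Rcn1, Cdkl4, Tbx18 and Tal1 hold the full palindrome TTGCGCAA, and the one near Pgap1 holds the cores TTGCTTAA and, on the other strand, TTGCGTAA. The 3 lost sites hold TTGCATAA or TTGCACAA. The kept and lost sites shown differ in strength as well as in sequence, so these lines illustrate the sites and test nothing.

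The site near Rcn1, which encodes a calcium-binding protein of the endoplasmic reticulum, was the strongest of the kept sites, with a fold enrichment of 90.7 and 99.9 in WT replicates 1 and 2 and 48.4 and 69.3 in the DKO replicates. It was intergenic, 28987 bp from the Rcn1 start and 27743 bp from the nearest active peak. Near Cdkl4, a cyclin-dependent kinase-like gene, the values were 80.1 and 86.1 in WT and 31.2 and 45.1 in DKO, at an intronic site 2894 bp from the start. Both sites were lower in each DKO replicate than in each WT replicate.

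The intronic site 33770 bp from Pgap1, which encodes an enzyme that remodels GPI anchors, gave 73.1 and 79.8 in WT and 39.0 and 46.9 in DKO. At 119109 bp from Tbx18, a T-box factor of the mesenchyme, the values were 69.1 and 73.6 in WT and fell to 18.3 and 21.9 in DKO. The site 21190 bp from Tal1, a blood cell transcription factor, gave 44.0 and 48.8 in WT and 46.4 and 65.4 in DKO. It was the only one of the 5 in which the genotypes overlapped.

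Among sites with no DKO peak, again without chromosomes 18 and Y, the strongest lay 32147 bp from the predicted gene Gm7866, with fold enrichments of 23.7 and 31.8 in WT. A site 71313 bp from Stard3nl, which encodes a protein of late endosomes, gave 32.5 and 34.1, and one 121124 bp from Il12b, the shared subunit of interleukins 12 and 23, gave 23.1 and 23.2. The next in rank lay in an intron 9331 bp from Snx10, a sorting nexin (22.6 and 23.4). These were well below the kept sites in WT. Gm7866 had the highest mean −log10 q of the lost sites named and ranked 147 of 5332 by that measure. At a mean −log10 q of at least 100, 172 of 175 sites outside active chromatin had a peak in both DKO lists and 3 in neither, and of the active sites this strong 544 of 547 had a peak in both.

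In WT the sites outside active chromatin were somewhat weaker than the active sites. The median fold enrichment was 8.72 and 8.96 in WT replicates 1 and 2, against 9.07 and 9.38 at active sites, and the median −log10 q was 17.9 and 18.2 against 21.2 and 22.0. The upper ends differed more: the 90th percentile of fold enrichment was 17.6 and 18.5 outside and 21.9 and 23.1 at active sites. All shared sites were split into 10 classes of equal number by their mean WT −log10 p. Sites outside active chromatin made up 44.8% of class 1, the weakest, 50.7% of class 4 and 26.2% of class 10, the strongest. These are values the rule used, given as a description. At the edge of the rule, the 3 sites just past 1000 bp from an active peak (gaps of 1003, 1003 and 1009 bp) had WT replicate 1 fold enrichments of 4.94, 8.16 and 10.1. The 3 just inside (gaps of 999, 997 and 996 bp) had 20.4, 6.95 and 7.96.

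Distance from the nearest active peak ran from 1003 bp to 1792378 bp, with a median of 16308 bp, and 90% of the sites lay within 99370 bp. The 3 farthest were in an intron of Pcdh17, a protocadherin gene (10714 bp from its start), in an intergenic stretch 1437703 bp from Odz2, a teneurin gene, and in an intron 160458 bp from Cntn6, a contactin gene. All 3 had a CEBPB peak in both DKO lists. At the Cntn6 site the fold enrichment was 7.11 and 6.72 in WT and 11.2 and 11.9 in DKO, higher in each DKO replicate. The Odz2 site gave 6.84 and 8.07 in WT and 7.74 and 9.78 in DKO, and the Pcdh17 site 14.3 and 15.5 in WT and 12.6 and 9.57 in DKO.

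To ask how the loss of HMGN1 and HMGN2 affected CEBPB occupancy outside active chromatin, the CEBPB peaks of each library were counted on either side of the same rule. WT replicates 1 and 2 had 6396 and 6692 peaks with no active WT peak within 1000 bp, and DKO replicates 1 and 2 had 1867 and 2053. Near active WT peaks there were 7801 and 8000 peaks in WT and 3019 and 3275 in DKO. The WT and DKO counts did not overlap on either side, which also held for the total counts of every other antibody except Histone H1 and Klf4. In limma, fitted over the peak numbers of 16 antibodies with 4 libraries each, the log2 peak number outside active chromatin changed by −1.74 ± 0.07 (SE, DKO minus WT; adjusted p = 0.00131). Near active peaks it changed by −1.33 ± 0.06 (adjusted p = 0.00191). A fall was common in the series: 56.2% of the 16 antibodies were called lower in DKO in the fit with the CEBPB peaks outside active chromatin, and 62.5% in the fit with those near it.

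**Figure D1:**
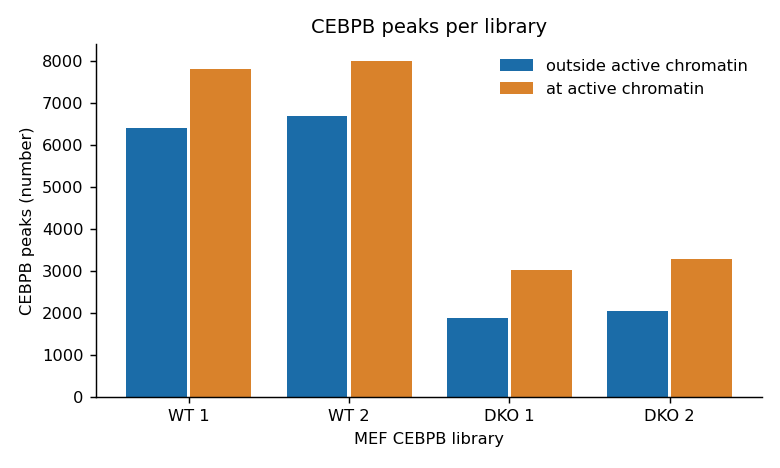
Number of CEBPB peaks (vertical axis) in each of the 4 MEF CEBPB libraries (horizontal axis), split by whether an H3K27ac, p300 or Brd3 peak of a WT library lay within 1000 bp; each bar is 1 library. Outside active chromatin the count fell from 6396 and 6692 in WT to 1867 and 2053 in DKO, and near active peaks from 7801 and 8000 to 3019 and 3275.

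The fall was larger outside active chromatin than near it by −0.41 ± 0.06 on the log2 scale (limma on the log2 ratio of the 2 counts, with the ratio of distal to promoter peaks for the other 15 antibodies, adjusted p = 0.0175), where 37.5% of the 16 rows were called lower in DKO. With the replicate number as a block the adjusted p was 0.0531, although no label pairs the replicates. The share of peaks outside active chromatin was 45.1% and 45.5% in WT and 38.2% and 38.5% in DKO. This difference moved with the length of the lists. When the 4886 strongest peaks by −log10 q were taken from each library, the share was 37.2% and 37.4% in WT and 38.2% and 38.1% in DKO, and the difference in log2 change was 0.05 ± 0.04 (adjusted p = 0.402). In WT, peaks below the 4886 strongest were thus more often outside active chromatin than those 4886 were. The part that list length and library depth had in the difference was not tested.

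A peak of the DKO library overlapped 32.0% of the 5332 sites in DKO replicate 1 and 34.4% in DKO replicate 2 (33.2% ± 1.7, SD, n = 2 libraries), compared with 43.3% and 46.3% of the active sites (44.8% ± 2.1). The shares moved with the length of the lists: with sites and DKO peaks taken from the 4886 strongest CEBPB peaks of each library, they were 71.6% ± 1.1 outside active chromatin and 82.1% ± 0.36 at active sites. In the full lists, both DKO replicates held 1475 of the sites (27.7%) and neither held 3268 (61.3%, exact 95% interval 60.0 to 62.6%), where 34.7% and 55.3% of all 12106 shared sites were in both and in neither. Of the active sites, 40.2% were in both and 50.5% in neither. The 2074 sites with both H3K27ac and p300 nearby were kept at 49.8% and 52.99%, shares not adjusted for their strength in WT. Because every site was selected on a WT peak, some fall in DKO can follow from the choice, and whether it does so to the same extent in both groups was not tested. Intervals cover counting error only, and neighbouring sites are not replicates of the cells.

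Strength in WT went with much of the retention. In class 1, the weakest, 6.26% and 7.18% of sites outside active chromatin had a peak in the DKO replicates, and in class 10 97.8% and 98.1%. At equal strength the gap to active sites narrowed to −2.47 and −3.30 percentage points, as the mean over the 10 classes in DKO replicates 1 and 2 (−2.88 ± 0.59, SD, n = 2). In 7 of the 10 classes the share kept was lower outside active chromatin in both DKO replicates. The gap was widest in classes 7 to 9. In class 8, 57.6% and 63.6% of sites outside active chromatin were kept, against 67.7% and 71.0% of active sites, and in class 7, 42.4% and 44.6% against 47.7% and 53.3%. Classes 1 and 2 differed by at most 1.32 points in either direction. The size of the mean difference depended on the settings. It was −1.68 points with active peaks within 5000 bp, −1.83 with DKO peaks counted as active too, −5.15 with the 4886 strongest peaks of each library, and −6.93 with classes of fold enrichment in place of −log10 p.

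**Figure D2:**
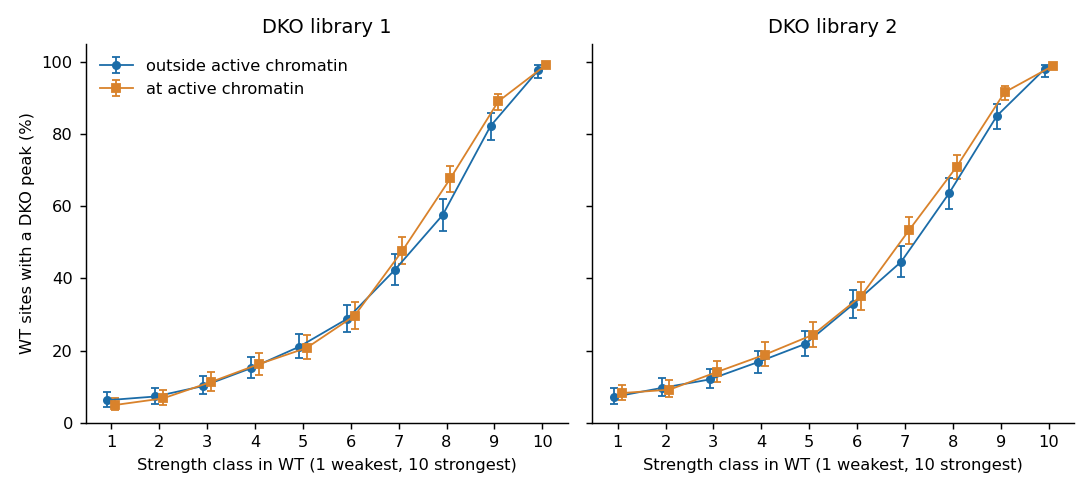
Share of WT CEBPB sites with a peak in DKO replicate 1 (left) and DKO replicate 2 (right), in percent, by class of mean WT −log10 p; points are shares, bars exact 95% intervals, blue circles sites outside active chromatin and orange squares active sites. Both curves climb from under 10% in class 1 to over 97% in class 10, and the blue points lie below the orange ones in classes 7 to 9.

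Sites kept in both DKO replicates were weaker there than in WT. Over the 1475 such sites outside active chromatin the median fold enrichment was 13.9 and 14.1 in WT and 8.76 and 9.15 in DKO. At 83.0% of them the mean of the DKO replicates was below that of the WT replicates, and the median log2 ratio of DKO to WT was −0.58. Over the 2721 active sites kept in both, the medians were 15.1 and 15.9 in WT and 8.73 and 9.15 in DKO, with a median log2 ratio of −0.73. Among the strongest class the ratios were −0.96 outside and −1.01 at active sites. The sites were selected and classed on WT signal, and the depth behind each library is unknown. How far either set these ratios was not tested. Sites in neither DKO list had WT medians of 7.59 and 7.87 outside active chromatin.

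Of the DKO peaks outside WT active chromatin, 5.03% and 6.19% overlapped no WT CEBPB peak, compared with 1.159% and 1.83% of the DKO peaks near active WT chromatin. The DKO lists hold 4886 and 5328 peaks and the WT lists 14197 and 14692, and a longer WT list leaves fewer DKO peaks without a match. These shares were not computed at equal list length.

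The C/EBP core was more frequent outside active chromatin. The sequence TTGCNNAA occurred on either strand within 100 bp of the summit at 63.3% of these sites (exact 95% interval 62.0 to 64.6%) and at 44.0% of active sites (42.8 to 45.2%), against 9.14% and 8.84% of windows of the same 201 bp placed 5000 bp to either side. In all 10 strength classes the share was higher outside, by 16.98 to 26.96 points. In class 10 it was 84.2% against 61.2%. The core lay close to the summit, at a median of 10.5 bp in both groups, and 85.2% of those outside active chromatin were within 30 bp. At least 2 cores were found at 9.96% of sites outside and 5.21% of active sites. These shares are descriptions over sites of 2 WT libraries, and no test was made of them.

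The form of the core differed as well. The full palindrome TTGCGCAA, which is 1 form of TTGCNNAA, was present at 6.36% of sites outside active chromatin and 2.44% of active sites, against 0.0188% and 0.0148% of the windows 5000 bp away. With an A before and a T after it, as at the Rcn1 and Tbx18 sites, it was present at 72 sites outside and 13 active sites. The most frequent form in both groups was TTGCACAA, with 23.0% of all cores outside and 20.4% at active sites, followed by TTGCTCAA (11.4% and 12.6%). TTGCAAAA made up 7.89% of cores outside and 10.5% at active sites. Sites outside active chromatin had a median GC content of 41.8%, compared with 43.8% at active sites, and a mean of 2.02 against 3.35 CpG per 201 bp.

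The AP-1 element TGACTCA, bound by dimers of Fos and Jun proteins, was found at 15.1% of sites outside and 19.6% of active sites (3.39% and 3.68% of windows 5000 bp away), and was lower outside in all 10 classes. GGAATG, the element of TEAD factors, was found at 15.998% and 20.4%, with 11.1% and 10.8% away, and was lower outside in 8 classes and higher in 2. CCGGAA, the core read by many Ets factors, was at 1.84% outside and 3.81% at active sites, and outside it was near the 1.57% of windows away. TGATGCAA, the composite element of a C/EBP and an ATF4 partner, was present at 9.21% and 10.5%, higher outside in 5 classes and lower in 5. Outside active chromatin its share ranged from 6.94% in class 10 to 11.02% in class 5 with no steady order, and at active sites it was 5.09% in class 1 and 15.5% in class 10. All were searched on both strands. GGAATG can share bases with TTGCNNAA, whereas TGACTCA, TGATGCAA and CCGGAA cannot.

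**Figure D3:**
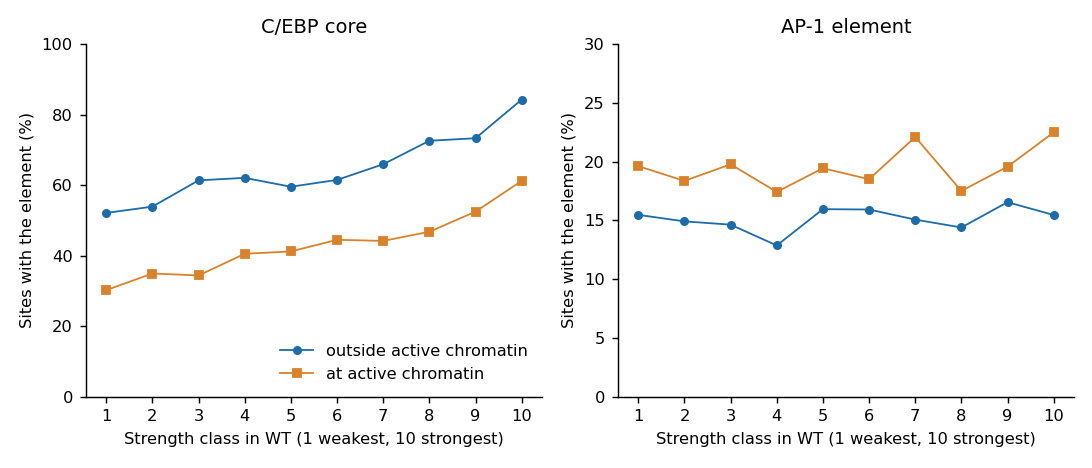
Share of CEBPB sites, in percent, with the C/EBP core TTGCNNAA (left) or the AP-1 element TGACTCA (right) within 100 bp of the WT replicate 1 summit, by class of mean WT −log10 p; blue circles are sites outside active chromatin and orange squares active sites. The core is higher outside in every class (84.2% against 61.2% in class 10), and the AP-1 element is lower outside in every class; the right axis ends at 30%.

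Sites outside active chromatin that held an AP-1 element were kept more often. A DKO peak was found at 44.0% and 47.3% of the 803 sites with TGACTCA and at 29.9% and 32.1% of those without. Within strength classes the difference was 12.9 and 14.3 points, and at active sites it was 10.3 and 9.75 points. With TTGCGCAA, 55.5% and 56.3% of 339 sites were kept, against 30.4% and 32.9% without it, a difference of 14.4 and 12.4 points within classes. At active sites 76.4% and 75.8% of the 165 with TTGCGCAA were kept, against 42.5% and 45.6% without it. These sites were concentrated in class 10, where 9.62% of 894 active sites held it. Within classes the difference at active sites was −4.43 and −9.002 points over the 8 classes with at least 5 sites with it and 5 without. These classes count equally in that mean, though below class 10 at most 3.05% of active sites in a class held TTGCGCAA. In class 10, 99.2% and 98.9% of all active sites were kept in DKO replicates 1 and 2, which leaves little room for a difference. The within-class value at active sites thus rests mostly on few sites, and no interval was computed for it. Outside active chromatin, holding any core gave only 2.13 and 0.39 points within classes. GGAATG, at 853 sites, gave 2.83 and 6.17 points. Of only 98 sites with CCGGAA, 24.5% and 28.6% were kept, against 32.2% and 34.5% without it (−7.68 and −4.31 points within classes). No interval was computed for these differences. Sites with both a core and an AP-1 element, 444 in all, were kept at 51.6% and 54.5%. The 2932 with a core alone were kept at 33.7% and 35.4%, the 359 with an AP-1 element alone at 34.5% and 38.4%, and the 1597 with neither at 22.9% and 25.9%. The pair with a core had similar WT strength, with median fold enrichments of 9.41 and 9.46 with the AP-1 element and 9.14 and 9.40 without it.

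Retention also varied with distance from active chromatin. At 1 to 2.5 kb from the nearest active WT peak, 27.7% and 30.8% of 481 sites were kept in the DKO replicates, and beyond 100 kb 37.7% and 38.8% of 528. Relative to all sites outside active chromatin of the same strength class, the difference was −2.73 and −2.04 points in the nearest bin and 8.53 and 7.44 points in the farthest. Beyond 100 kb the share kept was also 6.59 and 4.46 points above that of active sites of the same class, while within 2.5 kb the difference from active sites was −5.06 and −5.39 points in DKO replicates 1 and 2. The share with an AP-1 element moved with distance, from 11.6% in the nearest bin to 18.4% in the farthest. Among sites without the AP-1 element the kept share was 26.6% and 29.2% in the nearest bin and 34.8% and 34.6% in the farthest. The median fold enrichment in WT replicate 1 was 8.31 and 8.90 in these bins, and the C/EBP core was present at 65.5% and 65.2%.

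**Figure D4:**
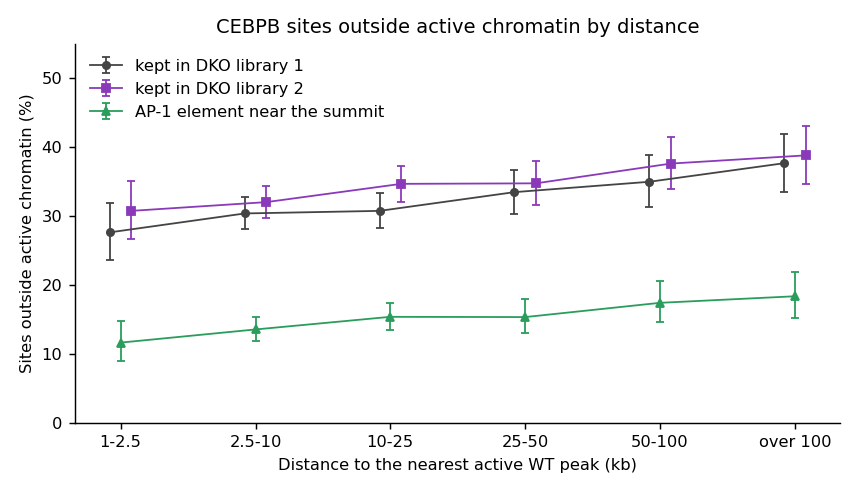
Share of the sites outside active chromatin, in percent, with a CEBPB peak in DKO replicate 1 (black circles) or DKO replicate 2 (purple squares) and with the AP-1 element TGACTCA within 100 bp of the summit (green triangles), by distance in kb to the nearest H3K27ac, p300 or Brd3 peak of a WT library; bars are exact 95% intervals. The kept share goes from 27.7% and 30.8% at 1 to 2.5 kb to 37.7% and 38.8% beyond 100 kb, and the AP-1 share from 11.6% to 18.4%.

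By position, these sites were mostly distal. A protein-coding transcript started within 1000 bp of the summit at 2.72% of them (145 sites) and at 11.8% of active sites. The median distance to a start was 48059 bp outside and 30007 bp at active sites, and 32.5% and 23.0% lay over 100 kb away. Summits fell in an exon at 2.36%, in an intron at 39.1% and between genes at 58.5% of sites outside active chromatin, compared with 4.16%, 43.7% and 52.1% of active sites. The 145 promoter sites were kept at 30.3% and 31.7%, −3.80 and −4.84 points relative to sites outside active chromatin of the same strength class. Among chromosomes with at least 20 shared sites, the share outside active chromatin ran from 36.7% on chromosome 11 to 51.3% on chromosome X, where both kinds were sparse (0.72 and 0.68 per Mb).

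On chromosome Y, 10 sites passed the rule. Their median fold enrichment was 2.16 and 2.26 in the WT replicates, and 9 had a peak in DKO replicate 1 and all 10 in DKO replicate 2. Of these, 6 overlapped peaks in at least 5 of 10 WT replicate 1 lists of embryonic stem cells and resting B cells, the only sites outside active chromatin that did, so they were called by several unrelated antibodies. No other statement on named sites uses chromosome Y.

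Genes were ranked by how many of the sites they were nearest to. Zeb2, a zinc finger repressor of epithelial genes, led with 17 sites, of which 5 and 6 had a peak in the DKO replicates and 11 in neither. Their fold enrichment ranged from 5.76 to 28.9 in WT replicate 1. Trps1, a GATA-type repressor, had 13 sites, with 4 and 7 kept, and Cited2, which encodes a p300-binding regulator, had 11, with 5 kept in each. Efnb2, an ephrin ligand, and the predicted gene Gm826 had 10 each. At Efnb2 5 and 6 were kept, and at Gm826 2 and 2. Cited2 also had 15 active sites, whereas Gm826 had 2. Most of these sites lay far from the gene: those of Zeb2 were 24491 to 1464345 bp from the start. The 100 kb window with the most sites held 6, with summits from chr12:31696886-31786220 nearest to Fam110c, and 3 and 0 of them were kept in the DKO replicates.

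A site outside active chromatin lay within 50 kb of a start of 3971 of 22372 protein-coding genes (17.7%), and an active CEBPB site within 50 kb of 5853 (26.2%). Both kinds were near 1432 genes and only sites outside active chromatin near 2539. Against that background 15 gene lists were counted. The lists are small, and nearby genes can share a site, so the counts are given with no test.

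Of 19 annotated myeloid cell genes, 10 had a site outside active chromatin (52.6%) and 7 an active one. Camp, Cebpe, Lyz2, S100a8 and S100a9 had sites outside active chromatin alone. The site 19674 bp upstream of Lyz2, which encodes the lysozyme of macrophages, gave a fold enrichment of 23.2 and 31.2 in WT and 9.65 and 12.5 in DKO. At Camp, which encodes the cathelicidin precursor of neutrophils, the site was 262 bp upstream of the start, with 15.7 and 13.9 in WT and no DKO peak. Of 22 hepatocyte genes 7 had a site outside active chromatin (31.8%) and 4 an active one. The Apoa1 site, 12781 bp upstream of this apolipoprotein gene, gave 15.6 and 19.2 in WT and 6.08 and 5.49 in DKO. Near the liver factor gene Foxa1 the values were 17.6 and 14.6 in WT and 6.46 and 9.78 in DKO.

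Of 22 adipocyte genes 5 had a site outside active chromatin (22.7%) and 11 an active one. The Cd36 site, in an intron of this fatty acid transporter gene and 129117 bp from the nearest active peak, gave 24.7 and 22.7 in WT and 11.7 and 13.4 in DKO. Pparg, the master regulator of fat cells, had 5 sites outside active chromatin and 1 active site within 50 kb. The strongest, 20921 bp upstream, gave 16.9 and 20.5 in WT and 10.2 and 11.9 in DKO. The site near Retn, a hormone gene, gave 7.82 and 11.1 in WT and no peak in DKO.

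For the B cell list, 4 of 10 genes (Ms4a1, Ptprc, Blk and Bank1) had a site outside active chromatin and 2 an active one. The strongest was 21806 bp from Ms4a1, which encodes CD20, with 17.6 and 17.8 in WT and 7.74 and 8.72 in DKO. Those near Ptprc, which encodes CD45 (8.48 and 11.6), and Bank1, a B cell adaptor gene (9.22 and 9.01), had no DKO peak.

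Of 18 ATF4 stress response genes 7 had a site outside active chromatin (38.9%) and 16 an active one (88.9%), and of 19 fibroblast genes 7 (36.8%) and 15. Only Psat1, of the ATF4 list, had sites outside active chromatin alone, and of the fibroblast list none did. The strongest sites of the ATF4 list outside active chromatin were near Sesn2 (11.7 and 16.1 in WT, 6.45 and 7.52 in DKO) and Atf3 (13.6 and 12.8 in WT, no DKO peak), both stress-induced, and near Vldlr, a lipoprotein receptor gene (8.17 and 8.45 in WT, 9.98 and 12.7 in DKO). In the fibroblast list the site near Dcn, the proteoglycan decorin, gave 11.1 and 11.9 in WT and 7.05 and 11.1 in DKO, and those near Acta2 (10.3 and 10.1) and Vim (7.17 and 7.21), both cytoskeletal genes, had no DKO peak.

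Of 23 inflammatory signal genes 13 had a site outside active chromatin and 17 an active one. Cxcl1 and Cxcl2, neighbouring neutrophil chemokine genes, share a site with 18.7 and 16.7 in WT and 8.23 and 9.10 in DKO. At Il1rn, which encodes the interleukin 1 receptor antagonist, a site 45 bp from a start gave 20.3 and 14.5 in WT and 6.72 in DKO replicate 2 alone. In the C/EBP family itself, Cebpb had 2 sites outside active chromatin and 2 active ones within 50 kb, and Cebpe and Cebpg 1 site outside each. The strongest site of each gave 8.45 and 6.32 for Cebpb, 8.42 and 8.96 for Cebpe and 6.14 and 7.21 for Cebpg in WT, and had no DKO peak.

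The count of genes with a site outside active chromatin was 3 of 12 for the AP-1 family (Batf, Batf3 and Maf) and 3 of 12 for cell cycle and p53 genes, where Cdkn2a and Cdkn2b share 1 site. It was 2 of 12 for bone and cartilage (Spp1 and Sox9), 2 of 11 for pluripotency (Zfp42 and Esrrb), 1 of 13 for muscle (Myh3), 1 of 16 for neuronal (Neurog2) and 1 of 12 for keratinocyte genes (Trp63). The Maf site gave 14.7 and 14.1 in WT and 9.96 and 11.8 in DKO, and the Trp63 site 10.5 and 8.73 in WT and 9.93 and 10.1 in DKO. The sites near Rb1, the retinoblastoma gene (8.98 and 8.96), and Zfp42, a gene of stem cells (10.3 and 7.15), had no DKO peak.

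**Figure D5:**
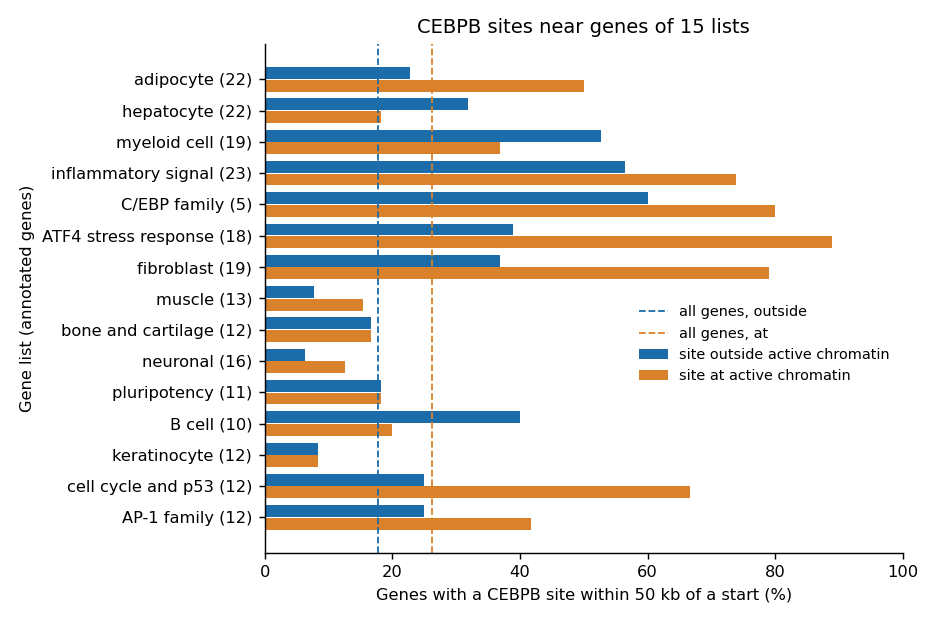
Share of the annotated genes of 15 lists (rows, with the number of genes) that have a CEBPB site within 50 kb of a start, in percent; blue bars are sites outside active chromatin, orange bars active sites, and dashed lines the shares over all protein-coding genes (17.7% and 26.2%). The blue bar exceeds the orange one for the hepatocyte, myeloid cell and B cell lists, and the longest orange bar is that of the ATF4 stress response list (88.9%).

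Chromatin marks of the DKO cells, which the rule did not use, were found at a minority of these sites. An H3K27ac peak of DKO replicates 1 and 2 lay within 1000 bp of 325 (6.10%) and 351 (6.58%) of the 5332 sites, and both had one at 179. At active sites the shares were 82.5% and 83.5%. A p300 peak was near 11 and 9 sites outside active chromatin, and a Brd3 peak near 0 in either replicate (each at most 0.069% by the exact 95% interval). At active sites the shares were 13.3% and 14.4% for p300 and 12.8% and 16.5% for Brd3. At least 1 such DKO peak was near 509 sites (9.55%, exact 95% interval 8.77 to 10.4%). With only direct overlap counted as active in the rule, the share was 22.2% of the then 6725 sites. A CEBPB peak of DKO was found at 30.6% and 34.8% of these 509 sites and at 32.2% and 34.3% of the others. Relative to all sites outside active chromatin of the same strength class, the difference was −5.67 and −4.02 points for the 509 sites and 0.60 and 0.42 points for the others. The 509 sites lay closer to WT active peaks (median 9237 bp against 16989 bp) and held the C/EBP core less often (47.5% against 65.0%).

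None of the 5332 sites overlapped an H3K27me3 peak of the 2 WT or 2 DKO lists, which hold 117 to 553 narrow peaks and so cover little of this broad mark. Of the 6774 active sites, 1 overlapped a peak of 1 of these lists. Histone H1 peaks overlapped 6 to 7 of the sites outside active chromatin in each of the 4 lists (0.11 to 0.13%) and 1 to 2 of the active sites (0.015 to 0.030%). Of the 281 Histone H1 peaks of WT replicate 1, 82 lay on chromosomes 1 to 19. Among peaks of other cells, CTCF peaks of WT embryonic stem cells overlapped 3.53% of sites outside active chromatin and 3.51% of active sites. Nanog peaks overlapped 1.97% and 5.27%, and Ikaros peaks of resting B cells 0.83% and 2.80%. Irf8 peaks of resting B cells overlapped 0.39% of sites outside active chromatin (21 sites) and 0.12% of active sites (8 sites), Pax5 peaks 0.23% and 0.074%, and Oct2 peaks 0.15% and 0.074%. These counts are small. The 6 chromosome Y sites found in at least 5 of the 10 lists of other cells can enter several of them. How many of the Histone H1, Irf8, Pax5 and Oct2 overlaps lay on chromosome Y was not counted.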

How the data were processed

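Peak lists of 16 antibodies with 4 libraries each (64 lists, 6 antibodies in MEFs) were used, and input libraries were not. Per the labels and the methods, the authors trimmed reads with CutAdapt 1.16, mapped them to mm9 with BWA, removed blacklisted regions and called peaks of each library with MACS2 2.1.1.20160309 against input. The deposited fold enrichment is a ratio of pileup to local background, and −log10 p and −log10 q were deposited as the authors' caller wrote them. Depth per library is not given. The lowest deposited −log10 q was 2.00.

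Members and gene lists were chosen with earlier results of these data known. Lists were read with pandas 2.3.3, peaks matched where they shared 1 bp, and sequence read from mm9 with pysam 0.24.0. The starts are those of protein-coding transcripts of GENCODE vM1 on the same build. Peak numbers were compared with limma 3.58.1 (R 4.3.3) without a block, adjusted by Benjamini-Hochberg at 0.05, with 0.5 added to counts in ratios. With 2 replicates, p-values measure the spread between these samples. Shares carry exact (Clopper-Pearson) 95% intervals. Code was tested on simulated data. Named were the 5 strongest kept and 5 strongest lost sites by mean −log10 q, 3 at each edge and 3 farthest. Also named were the 5 genes with most sites, up to 3 genes per list by strongest site, and the densest 100 kb window. Chromosomes 18 and Y were left out for sites and for the window. A site and a gene that the rule names are not reported here. Genes named as having no active site were added after their values were seen. Of the list genes, 5 had no annotated start under the symbol. Alternatives covered the rule for active chromatin, stricter q, list length, matching, strength classes, motif window, priors, a replicate block and each replicate left out.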

Additional observations from a re-analysis of the deposited data

Results flagged for a closer look

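The change in CEBPB peak number differed between chromatin classes. It was −1.74 on the log2 scale outside active chromatin and −1.33 near it, a difference of −0.41 that passed the test of the difference itself (limma, adjusted p = 0.0175). All 4 leave-out fits kept it between −0.43 and −0.40. With the same number of peaks from each library it was 0.05 (adjusted p = 0.402), and with a replicate block its adjusted p was 0.0531. Over the 14 alternatives the adjusted p ran from 0.000461 to 0.402.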

How the results depend on the processing

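The fall in peak number kept its direction and call under 13 of 14 alternatives on either side of the rule, and the difference between them under 12. Equal list lengths, which fix the total per library, gave log2 changes of 0.032 outside and −0.019 near active chromatin and a difference of 0.052; kept shares were then 71.6% and 82.1%, and −5.15 points within classes. With limma and a replicate block the changes were −1.74 (adjusted p = 0.00542) and −1.33 (adjusted p = 0.00883) and the difference −0.41 (adjusted p = 0.0531); the replicate numbers mark no stated pairing, and the deviations of replicates 1 of WT and DKO correlated at 0.23 over 16 antibodies. The kept share within classes was lower outside active chromatin under all 15 alternatives. It was −1.68 points with active peaks within 5000 bp, −2.16 with H3K27ac alone, −1.83 with DKO peaks counted too, −1.95 with 50% overlap and −6.93 with classes of fold enrichment. With direct overlap as the rule, 47.2% of active sites were kept, 60.9% of sites outside held a core, 3.49% were at promoters and 22.2% had a DKO active peak. That last share was 7.69% with 5000 bp and 10.8% with H3K27ac alone, and was not computed with DKO peaks in the rule, which sets it to 0. The core share was 65.0% with DKO peaks in the rule, 59.4% within 50 bp and 67.1% within 200 bp, and 5.53% of sites were within 2500 bp of a start. Leaving out each replicate in turn gave 28.1 to 34.4% kept outside, 38.2 to 46.3% at active sites, −3.30 to −2.07 points within classes, 6882 to 7304 sites, 60.0 to 60.9% with a core, 2.66 to 2.69% at promoters and 12.05 to 12.7% with a DKO active peak. The changes in peak number then ran from −1.81 to −1.67 outside, −1.39 to −1.27 near active chromatin and −0.43 to −0.40 for the difference; where 1 replicate was left its spread was taken from the other libraries. The causes of these shifts were not tested. Unknown depth limits every kept share, since a missing peak is not an absence of binding.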
